A study of Homo sapiens with 12 samples.

Results

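The genes described are 9 members of the pericellular proteolysis system, chosen by symbol: the matrix metalloproteinases MMP1 and MMP14, the plasminogen activators PLAU and PLAT, the activator receptor PLAUR, the metalloproteinase inhibitors TIMP1, TIMP2 and TIMP3, and the serine protease inhibitor TFPI2. All 9 had a row in each of the authors' 3 comparison tables, which list 18534 genes for SAHA, 27126 genes for compound 1 and 15255 genes in the case of a6. The cells were MDA-MB-231, a human triple-negative breast cancer line, and each of 4 groups had 3 libraries: SAHA, compound 1 or a6, each at 2.5 µM for 48 h, and DMSO alone (Ctrl). SAHA, or vorinostat, blocks histone deacetylases (HDACs). By the labels SAHA and compound 1 each hit a single target and a6 hits both HDACs and G-quadruplexes (G4s), folded structures of guanine-rich nucleic acid. No other agent or genetic change is given for any group. Values per library were not analysed here, so levels below are group means without an SD, and the errors are the standard errors (SE) of the deposited fold changes.

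Matrix metalloproteinases are zinc proteases that cut collagens and other matrix proteins, many of them made as inactive precursors and activated at or near the cell surface. The plasminogen activators turn plasminogen into plasmin, a broad serine protease that cuts fibrin and matrix and can activate several metalloproteinase precursors. TIMPs block metalloproteinases, and TFPI2, a secreted Kunitz-type inhibitor held in the matrix, blocks plasmin among other serine proteases. Invasive breast cancer lines such as this one are known for high activity of this system.

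Markers of the line were checked against its label. VIM and AXL, mesenchymal markers, had Ctrl levels of 21149 and 20938 normalized counts, and the hormone receptor genes ESR1 and PGR were listed in the compound 1 table only, at 0.319 and 0.298 normalized counts with compound 1. ERBB2, the third receptor of the triple-negative class, was not near 0 in RNA, with 1328 normalized counts with SAHA, 2082 with compound 1 and 1836 with a6, against 2103 in Ctrl. The epithelial genes KRT8, KRT18, KRT19 and CLDN4 had Ctrl levels of 17305, 8497, 7077 and 4846. EPCAM and CDH1 of the same list were far lower in Ctrl, at 172 and 5.04. None of the 6 epithelial markers passed the test with any compound, and CDH1 had no row for a6. The haematopoietic markers PTPRC, CD3E and HBB had no row in any table. The summed level of 9 mitochondrial transcripts, set down as a sign of RNA quality, was 284741 with SAHA, 232909 with compound 1 and 263055 with a6, against 272723, 272975 and 272757 in Ctrl as computed from the 3 tables, and none of the 9 passed the test with any compound. Low-abundance markers of other cell types did move with SAHA: LUM (fibroblast), VWF and KDR (endothelial) and CD14 (myeloid) were higher. The summed fibroblast list stood at 402 with SAHA, against 277 in Ctrl, and was mostly COL1A1 (293 with SAHA, against 192 in Ctrl, adjusted p 0.361 in the authors' deposited table), while PI16 of that list stood at 59.9 with SAHA, against 84.7 in Ctrl, and passed as lower with a6. The summed endothelial list stood at 154 with SAHA, against 46.9 in Ctrl, and the haematopoietic sum, which was CD14 alone, at 99.3 with SAHA, against 28.2 in Ctrl. PDGFRA, DCN and DPT had no row in any table. The labels name only MDA-MB-231 cells for every library. The part of these markers in the results below was not tested. In bulk RNA a change in the number of cells and a change in RNA per cell cannot be told apart. Over all genes 7.55% passed the test with SAHA, 0% with compound 1 and 0.583% with a6.

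Sequence upstream of the members is given because the labels give G4s as a target of a6. A G4 pattern, 4 runs of at least 3 G with 1 to 7 bases between them on either strand, was searched in RefSeq's 250 bases before each gene start (GRCh38.p14), which were found for 6 of the 9 genes. No such window was found for MMP1, PLAT and TIMP2. In the other genes the pattern was in 3 of 7 windows, of MMP14, PLAU and TIMP3, and in 23.5% of all 35116 windows. The stretch before TIMP3, the member with the lowest fold change after a6, is chr22:32801455-32801700, plus strand, and the one before MMP14, the member with the lowest fold change after SAHA, is chr14:22836335-22836556, plus strand. Both are cut where GENCODE 29 starts the gene. These 2 genes were picked by those fold changes, and neither fold change passed the test. In the authors' deposited tables adjusted p was 0.248 for TIMP3 with a6 and 0.101 for MMP14 with SAHA. Capitals mark the C runs and the bases between them that give the G4 pattern on the other strand.
TIMP3: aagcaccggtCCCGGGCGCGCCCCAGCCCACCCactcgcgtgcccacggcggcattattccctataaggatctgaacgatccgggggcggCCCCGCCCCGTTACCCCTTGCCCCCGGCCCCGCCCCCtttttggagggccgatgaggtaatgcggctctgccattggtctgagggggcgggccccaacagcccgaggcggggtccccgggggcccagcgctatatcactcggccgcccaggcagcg
MMP14: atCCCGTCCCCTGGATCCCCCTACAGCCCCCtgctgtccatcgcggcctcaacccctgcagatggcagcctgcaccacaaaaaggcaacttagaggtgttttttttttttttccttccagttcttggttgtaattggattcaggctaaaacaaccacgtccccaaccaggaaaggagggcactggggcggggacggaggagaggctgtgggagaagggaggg
The TIMP3 window, at 72.4% G plus C, held 2 such stretches and the MMP14 window, at 56.8%, held 1, both on the strand opposite to the one printed. One of the PLAU windows, at 68.8% G plus C, held 1 on the gene's own strand. By GENCODE 29 the windows of PLAU and PLAUR lie inside the annotated gene, and the TIMP1 window runs past the gene's start. PLAU passed the test with no compound, at log2 fold changes of -0.25 with SAHA, 0.05 with compound 1 and -0.09 with a6. GGGCGG, the GC box, was searched on both strands and overlaps such G and C runs. It was in 5 of the 7 windows, from 5 of the 6 genes, and in 42.6% of all windows.

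TGANTCA is a loose form of the site of AP-1 factors, which has G or C at N. The loose form was in windows of TFPI2 and PLAUR and in 6.57% of all windows, on either strand. At N the PLAUR match has G and the TFPI2 match has A. In TFPI2, the member with the highest fold change after SAHA and after a6, the match lies within chr7:93890823-93890851, minus strand. GENCODE 29 places the untranslated start of a longer transcript there, so only 29 bases are shown, with the match in capitals.
TFPI2: gtccccgtgcaTGAATCAgccacccctca
No window of the 6 genes held TATAAA, which is in 10.7% of all windows, and the TFPI2 window held no G4 pattern. ACGTG was in windows of MMP14 and TIMP1 and in 18.5% of all windows. A match is a run of letters and not a site of binding.

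SAHA against Ctrl addresses what an HDAC inhibitor alone did to the system, and 3 of the 9 genes rose and 0 fell (adjusted p under 0.05 in the authors' deposited DESeq2 table). The risers were MMP1, PLAT and TFPI2, a protease, a plasminogen activator and an inhibitor of plasmin. Against them stand 4.53% of all genes of that table that were higher and 3.02% that were lower; among all calls 60.0% were higher, and 73.6% were higher after a trend on GC content was removed (900 higher, 322 lower), a check added after seeing the data, and 67.6% with fold changes centred on their median. The 9 genes have high mean counts, and of the 3381 genes with a mean count at least that of the lowest of them 1.83% were higher. At an unadjusted p under 0.05, 5 of the 9 genes differed, with MMP14 and TIMP2 beside the 3 risers, against 18.4% of all genes. Over the 9 genes the median log2 fold change was -0.04, against -0.01 over all genes.

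**Figure D1:**
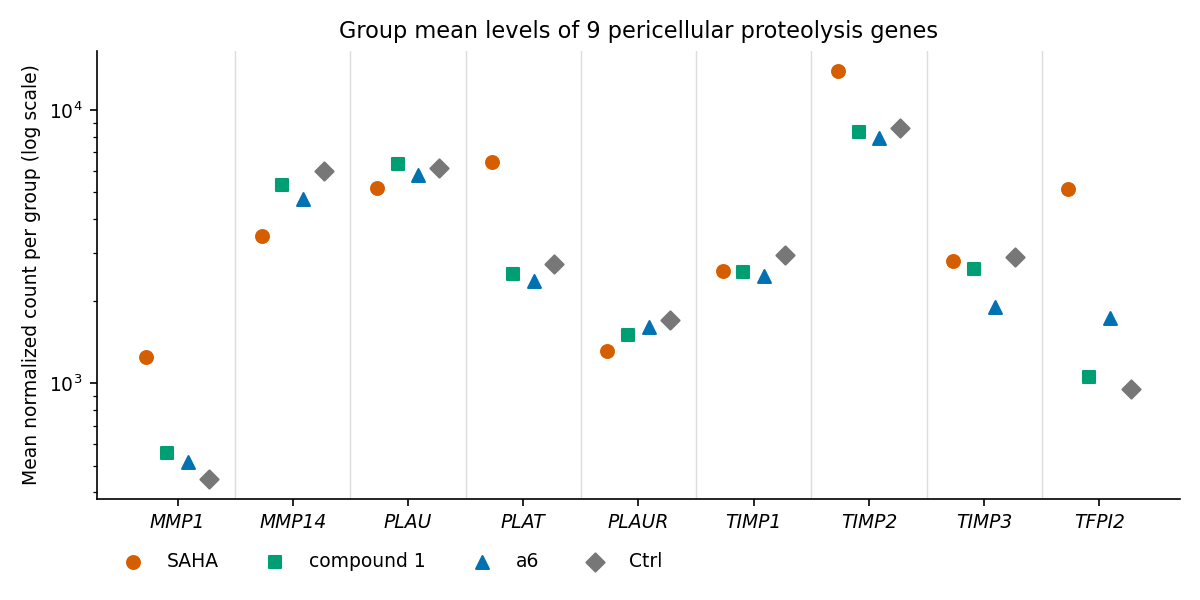
Mean normalized count per group (log scale, common Ctrl scale) of the 9 genes, with SAHA circles, compound 1 squares, a6 triangles and Ctrl diamonds; points are computed means with no error bars. TFPI2 stands at 5131 with SAHA, 1055 with compound 1 and 1738 with a6, against 951 in Ctrl, and PLAT at 6478, 2517 and 2364 against 2730.

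Among the proteases, MMP1, the interstitial collagenase (chr11:102789920-102798160, minus strand), had a level of 1250 with SAHA, 557 with compound 1 and 516 with a6, against 448 in Ctrl. The SAHA level was the highest of the 4. By the authors' deposited table its log2 fold change with SAHA was 1.48 (SE 0.42, adjusted p 0.00962), a fold of 2.79. MMP14, the membrane-bound metalloproteinase that activates MMP2 (chr14:22836557-22849027, plus strand), had a level of 3453 with SAHA, 5332 with compound 1 and 4720 with a6, against 5978 in Ctrl, so all 3 compound levels lay below Ctrl. By the authors' deposited table the SAHA log2 fold change was -0.79 (SE 0.31), and it did not pass the test (adjusted p 0.101).

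Of the plasminogen activators PLAT passed the test with SAHA and PLAU with no compound. PLAT, tissue-type activator, which is best known for dissolving fibrin clots (chr8:42175233-42207724, minus strand), had 6478 normalized counts with SAHA, 2517 with compound 1 and 2364 with a6, against 2730 in Ctrl. Only the SAHA level was above Ctrl, at a log2 fold change of 1.25 (SE 0.29, adjusted p 0.00102) in the authors' deposited table, a fold of 2.37. PLAU, urokinase, the activator used at the surface of migrating cells (chr10:73909177-73917497, plus strand), had 5177 with SAHA, 6354 with compound 1 and 5766 with a6, against 6140 in Ctrl, and PLAUR, the receptor that holds it there (chr19:43646095-43670547, minus strand), had 1311, 1502 and 1608, against 1705 in Ctrl. Neither passed the test in the authors' deposited tables: with SAHA the log2 fold change was -0.25 (95% interval -0.79 to 0.30) for PLAU and -0.38 (-0.98 to 0.22) for PLAUR.

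Of the TIMPs, none passed the test with any compound. TIMP2, which blocks metalloproteinases and also takes part with MMP14 in activating MMP2 (chr17:78852977-78925387, minus strand), had 13890 normalized counts with SAHA, 8316 with compound 1 and 7924 with a6, against 8613 in Ctrl. With SAHA its log2 fold change was 0.69 by the authors' deposited table (SE 0.25, adjusted p 0.0688), and it passed the test, at 0.75 (adjusted p 0.0394), once fold changes were centred on their median and, at 0.82 (adjusted p 0.0216), with a GC trend removed. TIMP1, the secreted TIMP that binds MMP9 precursor (chrX:47582313-47586789, plus strand), had 2571 with SAHA, 2556 with compound 1 and 2476 with a6, against 2958 in Ctrl, so all 3 compound levels lay below Ctrl. TIMP3, the matrix-bound TIMP that also blocks ADAM17 (chr22:32801701-32863043, plus strand), had 2810 with SAHA, 2610 with compound 1 and 1900 with a6, against 2889 in Ctrl, and so was lowest with a6.

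TFPI2 (chr7:93885396-93890991, minus strand) rose most. Its level was 5131 with SAHA, 1055 with compound 1 and 1738 with a6, against 951 in Ctrl, so SAHA and a6 are above Ctrl and compound 1 is close to it. By the authors' deposited table the SAHA log2 fold change was 2.43 (SE 0.26, adjusted p 1.17e-17), a fold of 5.40, and by p it was number 10 of the 18534 genes.

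Several members overlap a gene on the opposite strand, and the sources used here do not say whether strand was counted, so reads of the pair cannot be told apart. GNGT1 overlaps TFPI2 over 5596 bases and had a mean count of 139 in the SAHA table and a log2 fold change of 2.31 (SE 0.37, adjusted p 7.26e-08) there by the authors' deposited table, with 0.38 (SE 0.42, adjusted p 0.966) for a6. WTAPP1 overlaps MMP1 over 8241 bases, with a SAHA log2 fold change of 1.62 (SE 0.45, adjusted p 0.00871) in the authors' deposited table. C10orf55 overlaps PLAU over 7529 bases, at -0.24 (SE 0.27) in the authors' deposited table for SAHA, and AC022966.1 overlaps TIMP2 over 367 bases, at 0.62 (SE 0.26). With SAHA, GNGT1 and WTAPP1 passed in the same direction as TFPI2 and MMP1. The part of these overlaps in the members' values was not tested.

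**Figure D2:**
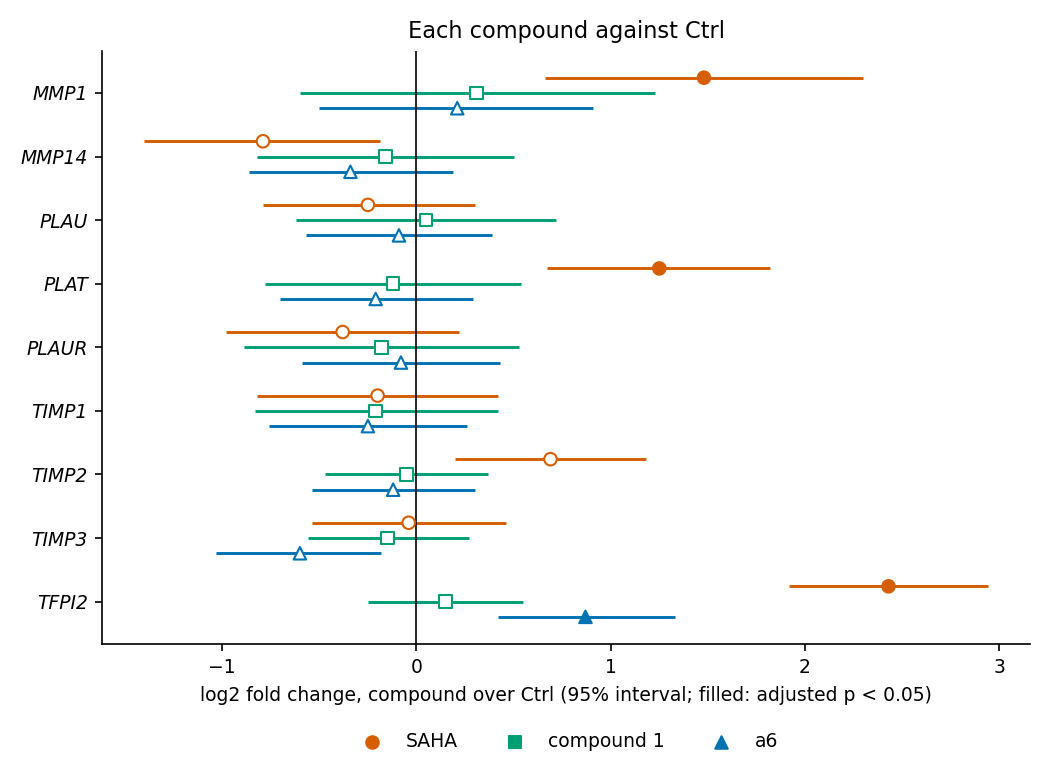
log2 fold change of each compound over Ctrl in the 9 genes, with bars for the 95% interval from the deposited SE, filled symbols for adjusted p under 0.05, and SAHA circles, compound 1 squares and a6 triangles. The filled symbols are SAHA at MMP1, PLAT and TFPI2 and a6 at TFPI2.

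For compound 1 against Ctrl 0 of the 9 genes passed the test, and 0% of all 27126 genes did. At an unadjusted p under 0.05, 0 of the 9 and 0.199% of all genes were found in the authors' deposited table; the smallest unadjusted p of the 9 was 0.458, of TFPI2. Its log2 fold change there was 0.15 (SE 0.20, 95% interval -0.25 to 0.55). The members' fold changes spanned -0.21 to 0.31, and MMP1 had the highest (0.31, 95% interval -0.60 to 1.23, in the authors' deposited table). MMP14 was at -0.16 (95% interval -0.82 to 0.50), PLAU at 0.05 (-0.62 to 0.72), PLAUR at -0.18 (-0.89 to 0.53) and PLAT at -0.12 (-0.78 to 0.54), log2 fold changes of the authors' deposited table. TIMP1 was at -0.21 (-0.83 to 0.42), TIMP2 at -0.05 (-0.47 to 0.37) and TIMP3 at -0.15 (-0.56 to 0.27). Every one of the 9 intervals holds 0, and the narrowest, of TFPI2, TIMP2 and TIMP3, stay within 0.56 of it.

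For a6 against Ctrl, 1 of the 9 genes rose and 0 fell, against 0.243% of all genes higher and 0.341% lower. The riser was TFPI2, at a log2 fold change of 0.87 (SE 0.23, adjusted p 0.0358) in the authors' deposited table, a fold of 1.83, number 76 of 89 genes that passed. It is below 2-fold, so it is not in the authors' own list of changed genes. TIMP3 was lowest, at -0.60 (SE 0.21) in the authors' deposited table, a fold of 0.658, with an unadjusted p of 0.0049 that did not hold after adjustment (adjusted p 0.248). These were the 2 members with an unadjusted p under 0.05, against 7.41% of all genes. MMP1 was at 0.21 (95% interval -0.50 to 0.91), MMP14 at -0.34 (-0.86 to 0.19), PLAU at -0.09 (-0.57 to 0.39), PLAUR at -0.08 (-0.59 to 0.43) and PLAT at -0.21 (-0.70 to 0.29), log2 fold changes of the authors' deposited table. TIMP1 was at -0.25 (-0.76 to 0.26) and TIMP2 at -0.12 (-0.54 to 0.30). PLAT and MMP1, which rose with SAHA, had a6 intervals that hold 0.

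**Figure D3:**
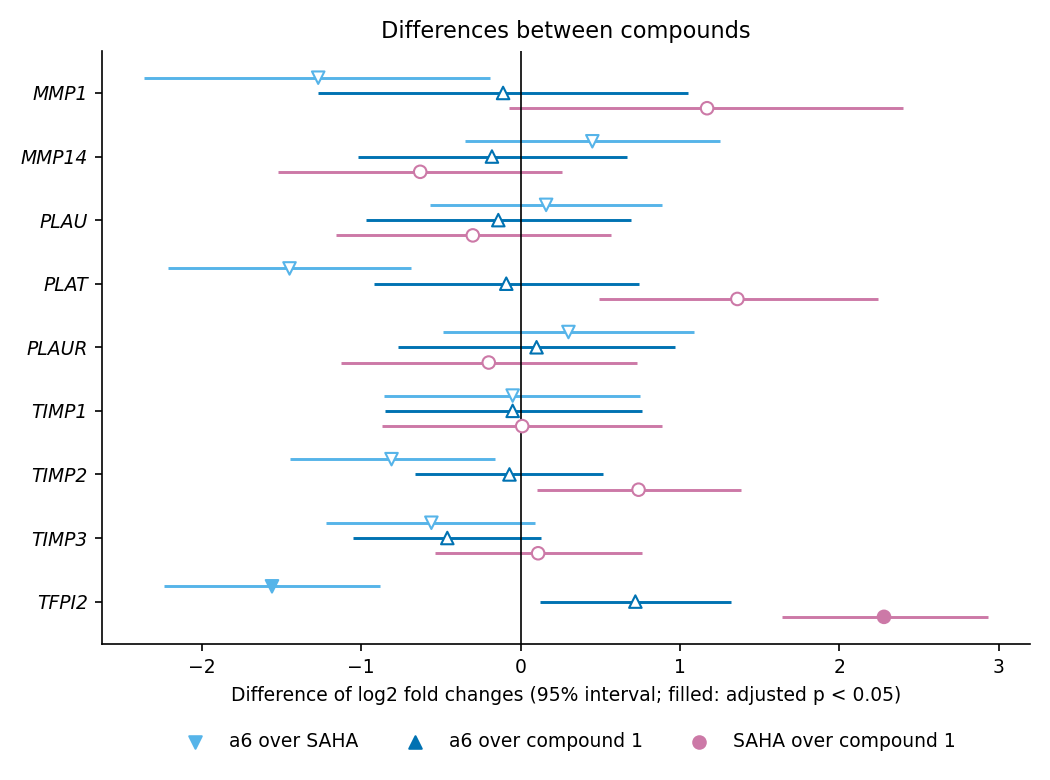
Difference of log2 fold changes between compounds in the 9 genes: a6 over SAHA, a6 over compound 1 and SAHA over compound 1, with bars for the 95% interval and filled symbols for adjusted p under 0.05. TFPI2 is filled at -1.56 for a6 over SAHA and at 2.28 for SAHA over compound 1.

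The compounds were set against each other at the same dose and time, as 3 pairs, with p adjusted over all genes of each pair. The shared Ctrl libraries enter both fold changes, and errors were taken as independent, which makes these tests conservative. Between a6 and SAHA 1 gene of the 9, TFPI2, was lower with a6 (0.197% of all genes were lower, 0.059% higher), at -1.56 (SE 0.35, adjusted p 0.00793). PLAT followed, at -1.45 (SE 0.39, adjusted p 0.0565), and MMP1 at -1.27 (95% interval -2.36 to -0.19) and TIMP2 at -0.81 (-1.45 to -0.16) had unadjusted p of 0.0213 and 0.0138. Thus 4 of the 9 genes had an unadjusted p under 0.05, against 5.56% of all genes. Over all genes the calls were 9 higher and 30 lower, and 5 higher and 44 lower with a GC trend removed. With errors correlated at 0.5 through Ctrl all 4 of these genes passed, as did 3.54% of all genes, against 0.256% with independent errors. TIMP3 was at -0.56 (95% interval -1.22 to 0.09), MMP14 at 0.45 (-0.35 to 1.25), PLAUR at 0.30 (-0.49 to 1.09), PLAU at 0.16 (-0.57 to 0.89) and TIMP1 at -0.05 (-0.86 to 0.75).

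Between a6 and compound 1, 0 of the 9 genes passed (0.0328% of all genes did, 0.00656% higher and 0.0262% lower), and TFPI2 was highest with a6, at 0.72 (SE 0.31, unadjusted p 0.0194), the 1 member under 0.05 before adjustment, against 1.46% of all genes. TIMP3 was lowest, at -0.46 (95% interval -1.05 to 0.13). Between SAHA and compound 1, TFPI2 was higher with SAHA, at 2.28 (SE 0.33, adjusted p 3.65e-08), number 2 of 18514 genes by p, and 1.06% of all genes passed, 0.583% higher and 0.481% lower. Over all genes 108 were higher and 89 lower, and 115 and 55 with a GC trend removed. PLAT was at 1.36 (95% interval 0.49 to 2.24, adjusted p 0.14) and TIMP2 at 0.74 (95% interval 0.10 to 1.38), and TFPI2, PLAT and TIMP2 were the 3 genes with an unadjusted p under 0.05, against 7.26% of all genes. MMP1 was at 1.17 (95% interval -0.07 to 2.40) and MMP14 at -0.63 (-1.52 to 0.26). With errors correlated at 0.5 PLAT and TIMP2 passed as well, and 5.33% of all genes did. MMP14, PLAU, PLAUR, TIMP1 and TIMP3 did not pass in any pair, with intervals that leave room for differences over 0.5 on the log2 scale, so they are not shown to be alike.

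Levels were also divided by kb of exon, counting each base in an exon of any annotated transcript. The lengths of the transcripts made in these cells are not known, so length is only partly removed. On that scale TIMP2 stood first with SAHA (2466 normalized counts per kb) and PLAU in Ctrl (2081). TFPI2 was number 2 of 9 with SAHA (1913) and number 8 in Ctrl (355), and with a6 it was number 5 (648). Because levels carry no error here, neighbours in this order were not compared. The genes whose 3 fold changes were nearest to TFPI2 were PCDH1, at 2.38 with SAHA, 0.20 with compound 1 and 0.76 with a6, and NANOS1, at distances of 0.130 and 0.310 over 11696 genes. For PLAT they were TENM3 and PTPRU (0.0384 and 0.0644) and for MMP1 SLC26A2 and DKK3 (0.190 and 0.196). The distances take no account of error. Single fold changes of these neighbours had SEs from 0.23 (PCDH1 with compound 1) to 0.59 (SLC26A2 with compound 1). Which genes are nearest is therefore not resolved.

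The rest of the system was read from 9 lists with 123 genes, of which 100 had a row in the SAHA table. With SAHA 15 of the 100 rose and 3 fell, against 4.53% and 3.02% of all genes. Their median log2 fold change was 0.24, against -0.01 over all genes. A gene near 0 in Ctrl reaches the lowest mean count of that table, 2.44, only through its SAHA level, so the 74 genes with a Ctrl level of at least 50 are the better base: 9 rose (12.2%) and 3 fell (4.05%), against 2.34% and 4.42% of 11941 genes chosen the same way. With a6, 0 rose and 1 fell (1.15%) among 87 genes, against 0.243% of all genes higher and 0.341% lower. The median was -0.18 against -0.03 over all genes, and 0 passed once fold changes were centred on their median. Of the 74 genes with a Ctrl level of at least 50, 0 rose and 1 fell (1.35%) with a6. Of 11888 genes chosen the same way 0.143% rose and 0.412% fell. With compound 1, 0 of 112 passed, as did 0% of all genes. At an unadjusted p under 0.05, 1 of the 112 was found, against 0.199% of all genes. Among the 74 genes with a Ctrl level of at least 50, such genes numbered 26 with SAHA, against 2133 of 11941 genes. With a6 they numbered 10 of the 74, against 908 of 11888 genes.

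Values in brackets for list genes are log2 fold changes. Counts by list are of genes with a Ctrl level of at least 50, where 2.34% of all genes rose with SAHA and 4.42% fell. Of 9 such plasminogen partners 1 rose. This was SERPINE2, protease nexin, which inhibits plasminogen activators, by 0.83 on the log2 scale (SE 0.26, adjusted p 0.0254) in the authors' deposited table. PLG had no row in any table. SERPINB2, SERPINI1, MMP3, F2RL2, ADAM12 and ADAM28 also passed as higher with SAHA but had mean counts and Ctrl levels under 50, and are named after their values were seen.

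Of 8 other inhibitors TIMP4 and SPINT1 rose with SAHA. TIMP4 stood at 251 with SAHA, 47.7 with compound 1 and 62.5 with a6, against 62.5 in Ctrl, a SAHA log2 fold change of 2.01 (SE 0.35, adjusted p 1.82e-06) in the authors' deposited table, and the difference of a6 minus SAHA was -2.01 (SE 0.52, adjusted p 0.0428). SPINT1, a membrane Kunitz inhibitor of matriptase and hepsin, rose by 1.64 on the log2 scale (SE 0.40, adjusted p 0.00145) in the authors' deposited table. SERPINA1, alpha-1-antitrypsin, was the gene that fell with a6, at -1.21 (SE 0.33, adjusted p 0.0442). RECK, a membrane inhibitor of metalloproteinases, did not pass (0.66, SE 0.30, adjusted p 0.195).

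**Figure D4:**
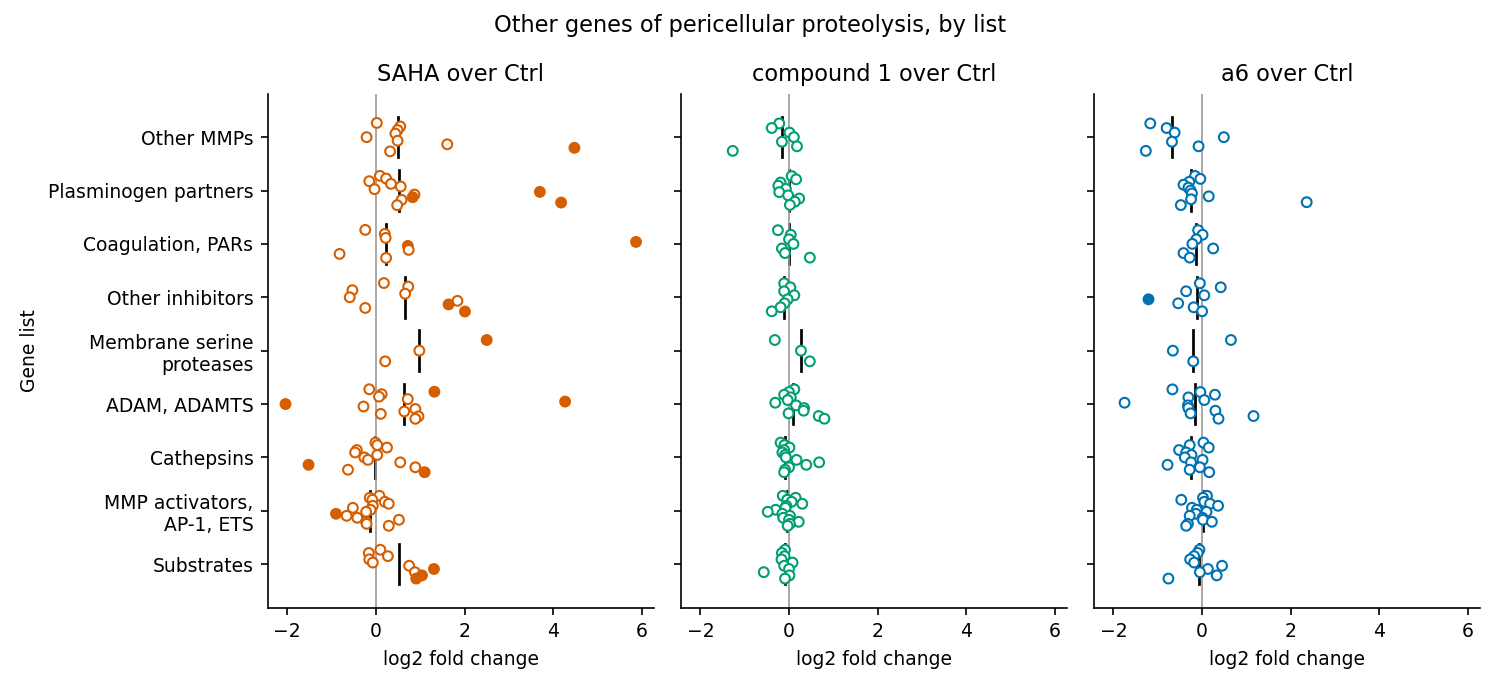
log2 fold change over Ctrl of genes in 9 lists of the pathway with a mean count of at least 10, in panels for SAHA, compound 1 and a6, with filled symbols for adjusted p under 0.05 and black bars for list medians. Filled symbols stand mostly in the SAHA panel. They lie to the right for SERPINE2, TIMP4, SPINT1 and DPP4 among others, and to the left for ADAM8, CTSS and FOSL1. Also filled to the right in that panel are MMP3, SERPINB2, SERPINI1, F2RL2, ADAM12 and ADAM28, with Ctrl levels under 50. The a6 panel has 1 filled symbol, SERPINA1, to the left. A gene near 0 in Ctrl can reach the mean count filter through its SAHA level alone. Such genes can move points and list medians of the SAHA panel to the right.

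Of 7 clotting and protease-activated receptor genes F3, tissue factor, which starts the clotting cascade, rose with SAHA (0.72, SE 0.24, adjusted p 0.0409), and of 2 membrane serine proteases DPP4 did (2.50, SE 0.37, adjusted p 6.7e-09), both in the authors' deposited table. Of 10 ADAM and ADAMTS genes 0 rose and ADAM8, a sheddase, fell, with 1159 normalized counts with SAHA, 3825 with compound 1 and 1411 with a6, against 4764 in Ctrl, at -2.04 (SE 0.40, adjusted p 3.69e-05) for SAHA and -1.75 (SE 0.71, adjusted p 0.414) for a6 in the authors' deposited table. Of 11 cathepsin-list genes LGMN, legumain, rose (1.10, SE 0.28) and CTSS, cathepsin S, fell (-1.52, SE 0.43) in the authors' deposited table. Of 14 activator and AP-1 genes FOSL1 fell (-0.90, SE 0.28, adjusted p 0.0244), while JUN (0.52, SE 0.27) and BSG (0.08, SE 0.31), the inducer of metalloproteinases, did not pass.

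Of 9 substrates 3 rose with SAHA and 0 fell, and TNC (0.91, SE 0.26) and the transglutaminase TGM2 (1.04, SE 0.30) were among the risers in the authors' deposited table. TNC, tenascin C, was at -0.76 (SE 0.24, adjusted p 0.136) with a6, and the difference of a6 minus SAHA was -1.67 (SE 0.35, adjusted p 0.0033). Of 4 other MMPs 0 passed with SAHA. MMP3, below that level in Ctrl, stood at 30.5 normalized counts with SAHA against 1.37 in Ctrl. MMP9, a gelatinase, had 28.7 normalized counts with SAHA, 9.62 with compound 1 and 9.58 with a6, against 23.0 in Ctrl and did not pass (0.32, SE 0.58), and MMP2 had a row in the compound 1 table only, at a mean count of 0.611.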

How the data were processed

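RNA of MDA-MB-231 cells in 12 libraries was read from the authors' deposited comparison tables. Per the submitters' processing notes, cutadapt, DESeq2 and the hg38 (GRCh38) build were used; the sources used here do not give the aligner, counter, versions or strand. Per the file headers the tables hold a mean normalized count (a signal that is never negative), log2 fold change and its SE, a Wald statistic, which is a score, and p-values before and after adjustment, beside lists of changed and G4-related genes. The statistic equals fold change over SE, and adjusted p a Benjamini-Hochberg adjustment over the table. Columns of values per library used: 0. Library depth is unknown, so no interval on counts is given. The labels call replicates biological without stating separate cultures, so p-values reflect only how far these libraries spread, which may be partly technical.

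Group levels were computed from mean count and fold change for equal groups, on the Ctrl scale of the SAHA table. Differences between compounds use the root of summed squared SEs, a z test (two-sided) and Benjamini-Hochberg adjusted p over all shared genes. The code was run on simulated fold changes with normal errors of the deposited SEs. Such a run cannot show whether those SEs hold with 3 libraries per group. Exon lengths and positions are from GENCODE 29. The genes named follow a rule: all 9 members, list genes with adjusted p under 0.05 and mean count of at least 50, and a few set names. Some genes that this rule or the marker lists take are not reported here. Members and lists were chosen with earlier results of these data known. Alternatives were a 2-fold limit, adjusted p under 0.01, count filters of 10 and 50, centring, the authors' lists and an error correlation of 0.5; removal of a GC trend was added after seeing the data. Python 3.11.15, pandas 2.3.3, SciPy 1.17.1 and statsmodels 0.14.6 were used.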

Additional observations from a re-analysis of the deposited data

How the results depend on the processing

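With a 2-fold limit, with adjusted p under 0.01 and in the authors' lists, the members that passed with a6 over Ctrl numbered 0, 0 and 0 in place of 1, and the list genes 0 with adjusted p under 0.01 and 0 when centred in place of 1; TFPI2 is the member concerned. Between a6 and SAHA the members that passed numbered 4 with an error correlation of 0.5 (MMP1 at adjusted p 0.0389, PLAT at 4.6e-05, TIMP2 at 0.0223 and TFPI2) and 2 when centred (PLAT at 0.0475 and TFPI2), in place of 1. Between SAHA and compound 1 they numbered 3 with that correlation (PLAT at 0.00111, TIMP2 at 0.035 and TFPI2), in place of 1. Over all genes 46.1% of SAHA calls were higher at a mean count of at least 50, in place of 60.0%. TIMP3 with SAHA turned to 0.02 when centred, from -0.04. Under the count filters, centring, removal of a GC trend and the error correlation, 207 of 216 values of members kept their direction and side of the threshold, 8 newly passed and 1 turned; the 2-fold limit, the stricter threshold and the authors' lists, under which TFPI2 with a6 lost its call, are not in this tally. The count filters and the error correlation leave the members' fold changes as they were, so no direction could turn under them. Adjustment over all genes of the table is the same as the deposited one. Over all genes, calls between a6 and SAHA were 238 higher and 302 lower with an error correlation of 0.5, in place of 9 and 30, between a6 and compound 1 they were 19 and 25 in place of 1 and 4, and between SAHA and compound 1 they were 488 and 499 in place of 108 and 89. The causes were not tested, save that the correlation makes the SE smaller by construction. No paired analysis was possible because the files used here hold comparisons and no values per library; leaving out a replicate was not run for the same reason.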

Other observations

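The deposited lists of G4-related genes hold names that are not in the authors' list of genes changed in the same direction. In the list for genes raised by SAHA, 188 of 723 names are not, and all 188 contain the name of a gene that is, such as MMP14, whose name contains MMP1. MMP14 is listed there with a G4 number of 1, although with SAHA it stood at -0.79 (log2 fold change) by the authors' deposited table and it did not pass. MMP11, MMP16, MMP17 and MMP19 are listed in the same way, and MMP1 itself is not in that list. Of all genes with SAHA values that are not in the authors' list of raised genes, 1.64% contain the name of a raised gene. In the list for genes lowered by a6, 208 of 326 names (63.8%) are absent from the authors' list of lowered genes, and all 208 contain such a name. No other member than MMP14 is in any of the 6 lists.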
